A study of Mus musculus with 10 samples.

Results

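Newborn dorsal skin of mice without an intact Dlx4 gene was compared by RNA sequencing with that of wild-type mice, which the series title describes as littermates. Of the 24543 entries in the deposited gene table, 13479 had a level of 1 RPKM or more in 2 or more of the 6 newborn libraries and were tested. RPKM is the number of reads of a gene scaled by the length of the gene and by the alignments of the library. The KO group held 3 Dlx4-KO samples and the WT group 3 Dlx4-WT samples, all of the C57BL/6 strain and all taken at postnatal day 1 (P1). The series title calls the Dlx4 gene ablated in the KO animals and does not say in which cells or which part of the gene was removed. Skin from postnatal day 60 (P60), with 2 samples of each genotype, enters only where the ages are set against each other. The purpose stated in the title was to detect molecular changes in skin that lacks Dlx4. The labels number the samples without tying them to litters or animals, so all p-values measure the spread between these samples.

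Dlx4 encodes a homeodomain transcription factor of the distal-less family, whose genes stand in the genome as pairs that are transcribed from opposite strands. Dlx4 is paired with Dlx3, which is needed in mice for hair follicle differentiation and is expressed in the suprabasal epidermis. Newborn mouse skin has a finished cornified barrier, a growing first coat of hair follicles, developing sebaceous glands and dermal fat, and a thin sheet of striated muscle, the panniculus carnosus, that whole-skin samples include.

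The 6 libraries came from 1 sequencing run, with 36131011 to 52558983 alignments in KO and 37749481 to 40238235 in WT. Keratinocyte keratins were abundant in each of them, with Krt5 at 1405, 1376 and 1396 RPKM in KO skin, against 1449, 1282 and 1086 RPKM in WT skin, and Krt10 at 6072, 5016 and 5804 RPKM in KO skin, against 6196, 4572 and 4184 RPKM in WT skin. Values in sets of 3 are given in the order of replicates 1, 2 and 3 of each genotype. Pearson correlations of log2 levels between libraries, across genes that are not independent of each other, ranged from 0.969 to 0.993. WT replicate 3 stood farthest from the others, with a score of 30.7 on the first principal component (48.8% of the variance) where the other libraries scored -16.2 to 7.1. It held 50.1 RPKM of the immediate early gene Fos, 56.5 RPKM of the secreted glutathione peroxidase gene Gpx3 and 10.4 RPKM of the wound keratin gene Krt16. The other 5 libraries held 10.6 to 16.6 RPKM of Fos, 10.8 to 17.02 RPKM of Gpx3 and 41.4 to 53.8 RPKM of Krt16. KO replicate 2 stood apart in Y-linked genes, with 35.0 RPKM of Eif2s3y and 16.0 RPKM of Ddx3y where no other library exceeded 0.0164 RPKM of either, and it had 0.0536 RPKM of Xist, which coats the inactive X chromosome of females. Xist reached 29.2 to 39.8 RPKM in the other 5. The labels give no sex.

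Dlx4 was lower in all KO libraries than in any WT library, but it was not absent. It had 1.77, 2.45 and 1.62 RPKM in KO skin, against 2.93, 3.78 and 3.42 RPKM in WT skin. The groups did not overlap, and the KO mean was 57.7% of the WT mean (1.95 ± 0.443 RPKM in KO skin and 3.38 ± 0.427 RPKM in WT skin; SD, n = 3 each). The difference on the log2(RPKM + 0.5) scale, used for all differences below, was -0.67 (SE 0.16), with a 95% interval of -1.03 to -0.31 and an adjusted p of 0.99995 over all tested genes in limma. A two-sided exact permutation test gave p = 0.1, the smallest that 3 against 3 samples allow. Leaving out single libraries gave -0.81 to -0.57, with the largest difference without KO replicate 2, whose Dlx4 level was the highest of the KO group, and array weights, which weight libraries by their agreement, gave -0.31. The gene lies on the minus strand of chromosome 11 (positions 95140447 to 95146263, mm10), and its antisense gene Dlx4os (positions 95145052 to 95159047, plus strand) overlaps its 5′ part. Dlx4os had 2.23, 2.74 and 2.05 RPKM in KO skin, against 2.78, 3.25 and 2.499 RPKM in WT skin, and its groups overlapped. The sources used here do not say whether the counting used strand, so reads from the overlap of the pair cannot be told apart. Because each value covers the gene as a whole, it does not show which exons were read in KO skin.

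The other tested members of the family had estimates of at most 0.29 in size. Dlx3 (chromosome 11, positions 95120119 to 95125296, plus strand) was the most abundant of them, with 52.8, 67.1 and 57.3 RPKM in KO skin, against 56.4, 68.0 and 63.6 RPKM in WT skin. Its KO and WT libraries overlapped, and its difference was -0.09 (SE 0.12), with an interval of -0.36 to 0.18. Dlx5, a member with a known role in bone and craniofacial development, had 3.14, 2.63 and 2.71 RPKM in KO skin, against 2.53, 1.83 and 2.34 RPKM in WT skin. Each KO value of Dlx5 was above each WT value, as they were for 2.02% of all genes tested, and the difference was 0.29 (SE 0.13), which did not pass. Dlx1 and Dlx2 stood at 0.10 and 0.18 with overlapping groups, and Dlx6 was under the expression minimum. In the annotation, 53 genes start within 1 Mb of Dlx4, and 33 of them were tested. Of these 14 were higher and 19 lower in KO, where 46.3% and 53.7% of all tested genes were, and 0 were called. Their median difference was -0.03 and their range -0.24 to 0.18, so no tested neighbour approached the difference of Dlx4 itself.

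**Figure D1:**
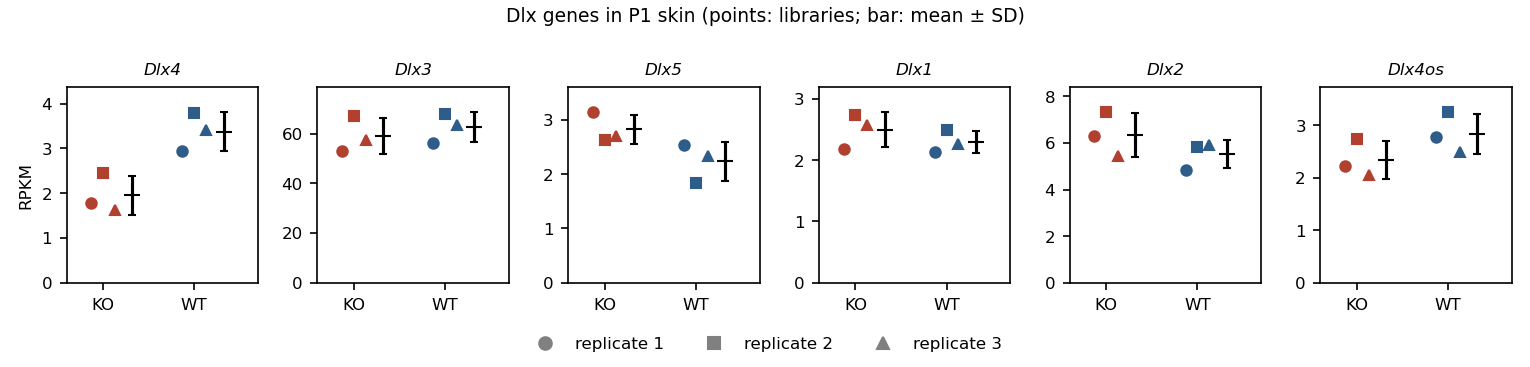
RPKM (y axis, from 0) of the 5 tested Dlx genes and of the antisense gene Dlx4os in each P1 library, with KO points left and WT points right in each panel and the mean ± SD (n = 3) as a bar beside them. The KO points lie below the WT points for Dlx4 and above them for Dlx5, and the groups overlap in the other 4 panels.

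Across the transcriptome, no gene passed the threshold between newborn KO and WT skin. Limma with Benjamini-Hochberg adjustment called 0 of 13479 genes (0%), and the smallest adjusted p was 0.99995. An unadjusted p under 0.05 was reached by 132 genes (0.979%), 66 of them higher and 66 lower in KO. This share lies below the fraction of 0.05 that evenly spread p-values would give. With array weights 41 genes were called, 25 higher and 16 lower, but KO replicate 2 carried 87.3% of the KO weight and WT replicate 1 carried 85.9% of the WT weight, so these calls set mainly 1 library against another. The KO libraries lay all above the WT libraries for 272 genes (2.02%) and all below for 320 genes (2.37%). Together these groups did not overlap for 4.39% of the genes. The middle of the distribution was narrow, since the 5th and 95th percentiles of the differences were -0.20 and 0.16 and the median was -0.01.

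The intervals set how large a difference these libraries leave room for. The median 95% interval reached 0.273 to either side of its estimate. For 13192 genes (97.9%) the whole interval lay between -1 and 1, and for 11008 genes (81.7%) it lay between -0.5 and 0.5. A difference beyond 1 was estimated for 4 genes upward and 8 downward, Xist being lowest at -2.04 (-0.05 without KO replicate 2). Genotype accounted for 11.3% of the summed variation between the libraries, on 1 of 5 degrees of freedom.

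**Figure D2:**
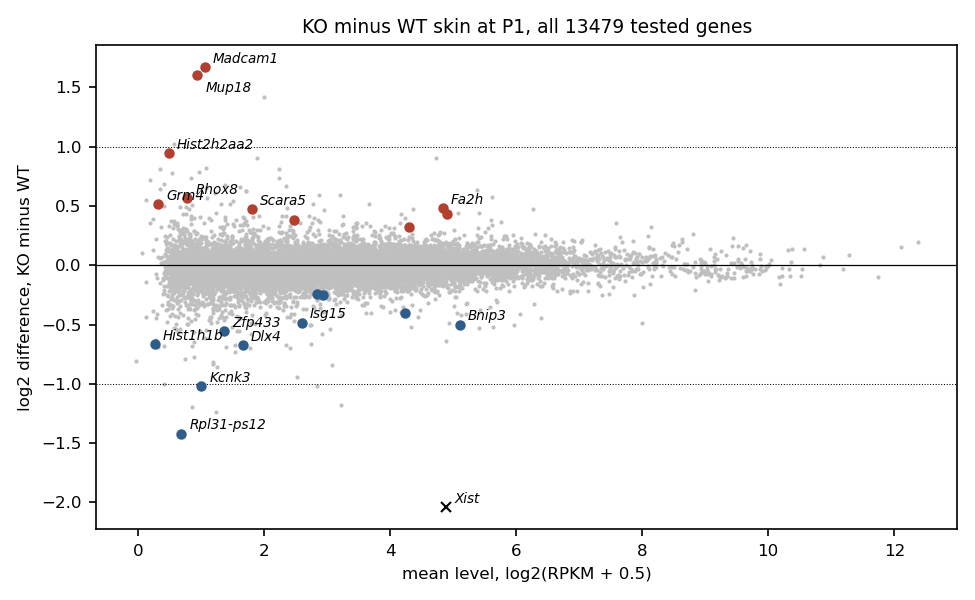
Difference KO minus WT (y axis, log2) against the mean level (x axis, log2 of RPKM + 0.5) for all tested genes, grey, with the genes of smallest p and non-overlapping groups in red (higher in KO) and blue (lower in KO); dotted lines mark 1 and -1. The grey cloud is centred on -0.01. Of the red and blue genes, those with the largest differences, Madcam1 at 1.67 and Rpl31-ps12 at -1.42, have low mean levels. A black cross marks Xist at -2.04, with means of 23.0 RPKM in KO skin and 35.3 RPKM in WT skin.

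The genes named next had the smallest p in each direction among those whose groups did not overlap. None of them passed the adjusted threshold, the exact permutation test gave each the smallest possible p of 0.1, and being without overlap is how they were chosen. Madcam1 headed the genes higher in KO. It encodes the addressin by which vessels of the gut and its lymphoid tissue hold lymphocytes, and it had 2.94, 3.32 and 1.79 RPKM in KO skin, against 0.327, 0.511 and 0.620 RPKM in WT skin. Each KO library held more Madcam1 than any WT library, the means being 2.68 ± 0.798 RPKM in KO skin and 0.486 ± 0.148 RPKM in WT skin (SD, n = 3 each), and about 92.6 to 222 reads stood behind the KO values against 17.7 to 33.6 behind the WT values. The difference was 1.67 (SE 0.22), with an interval of 1.16 to 2.18, and it stayed between 1.52 and 1.89 with any single library left out. Madcam1 passed the expression minimum through the KO libraries only. Other adhesion molecules of vessels had estimates below 0. Icam2, a resting endothelial ligand of leukocyte integrins, was at -0.31 (SE 0.13), Vcam1, which inflamed endothelium displays, at -0.20 (SE 0.11), Icam1 at -0.04 (SE 0.16) and Cd34 at -0.04 (SE 0.09). The selectin genes Sele and Selp and the lymph node addressin gene Glycam1 were under the expression minimum.

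Mup18, a major urinary protein gene, had 1.74, 1.495 and 3.99 RPKM in KO skin, against 0.130, 0.619 and 0.524 RPKM in WT skin. The KO values spread widely and all lay above WT, with a difference of 1.60 (SE 0.34). The histone H2A gene Hist2h2aa2 followed at 0.94 (SE 0.22), on no more than 50.8 reads in a library. Mup18 and Hist2h2aa2 have near-identical copies elsewhere, which makes the reads assigned to each uncertain. Like Madcam1 they passed the expression minimum through KO libraries only, as did the glutamate receptor gene Grm4 (0.51, SE 0.14).

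Other genes higher in KO, apart from Rhox8, were better covered. Slurp1, a secreted protein of the upper epidermis whose loss causes a palmoplantar keratoderma in humans, had 30.1, 37.7 and 33.7 RPKM in KO skin, against 23.9, 25.6 and 24.97 RPKM in WT skin. Its difference was 0.43 (SE 0.10), with an interval of 0.20 to 0.66. Fa2h, which hydroxylates the fatty acids of ceramides in epidermis and sebaceous gland, had 32.01, 36.7 and 29.7 RPKM in KO skin, against 20.4, 26.2 and 23.5 RPKM in WT skin, with a difference of 0.48 (SE 0.12). In both genes the lowest KO library stood above the highest WT library by less than the range within the KO group. Top1mt, the mitochondrial topoisomerase, had 5.59, 6.26 and 5.64 RPKM in KO skin, against 4.40, 4.51 and 4.18 RPKM in WT skin, with a difference of 0.38 (SE 0.09). Creld2, a resident protein of the endoplasmic reticulum that is induced when protein folding there is disturbed, had 21.6, 20.9 and 21.3 RPKM in KO skin, against 17.2, 17.6 and 16.1 RPKM in WT skin, with a difference of 0.32 (SE 0.08). For Top1mt and Creld2 the gap between the groups was wider than the range within either of them. The scavenger receptor gene Scara5 (0.47, SE 0.13) and the X-linked homeobox gene Rhox8 (0.57, SE 0.15) completed the genes higher in KO. Rhox8 rested on about 30.7 to 97 reads in a library.

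Below Dlx4, several of the genes lower in KO were of low level. Kcnk3, a leak potassium channel that sets resting membrane potential, had 1.10, 0.685 and 0.584 RPKM in KO skin, against 1.37, 1.79 and 3.48 RPKM in WT skin. Its WT values spread from 1.37 to 3.48 RPKM, and the difference of -1.02 (SE 0.29) came to -0.70 without WT replicate 3. Zfp433, a zinc finger gene, had 1.55, 1.28 and 1.98 RPKM in KO skin, against 2.49, 2.68 and 2.51 RPKM in WT skin, with a difference of -0.55 (SE 0.14), its WT values lying close together. The ribosomal pseudogene Rpl31-ps12 (-1.42, SE 0.35) and the linker histone gene Hist1h1b (-0.66, SE 0.18) rested on at most 37.9 and 30.6 reads in a library and passed the expression minimum through WT libraries only. Rpl31-ps12 shares sequence with its parent gene, which makes its reads uncertain.

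Among the more abundant genes, Bnip3, a mitophagy receptor that hypoxia induces, had 29.7, 24.6 and 29.1 RPKM in KO skin, against 31.5, 38.0 and 51.0 RPKM in WT skin. The difference of -0.50 (SE 0.17) was -0.32 without WT replicate 3, the highest library. Art3, of the ADP-ribosyltransferase family, had 16.8, 14.1 and 16.3 RPKM in KO skin, against 17.7, 22.8 and 22.8 RPKM in WT skin, with a difference of -0.41 (SE 0.12). Isg15, a ubiquitin-like protein that interferon induces, had 4.84, 5.07 and 3.72 RPKM in KO skin, against 5.33, 6.72 and 7.65 RPKM in WT skin, with a difference of -0.48 (SE 0.16), or -0.37 without WT replicate 3. Smaller differences were estimated for the small GTPase gene Rab29 (-0.24, SE 0.08) and for Fam102b (-0.25, SE 0.09).

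**Figure D3:**
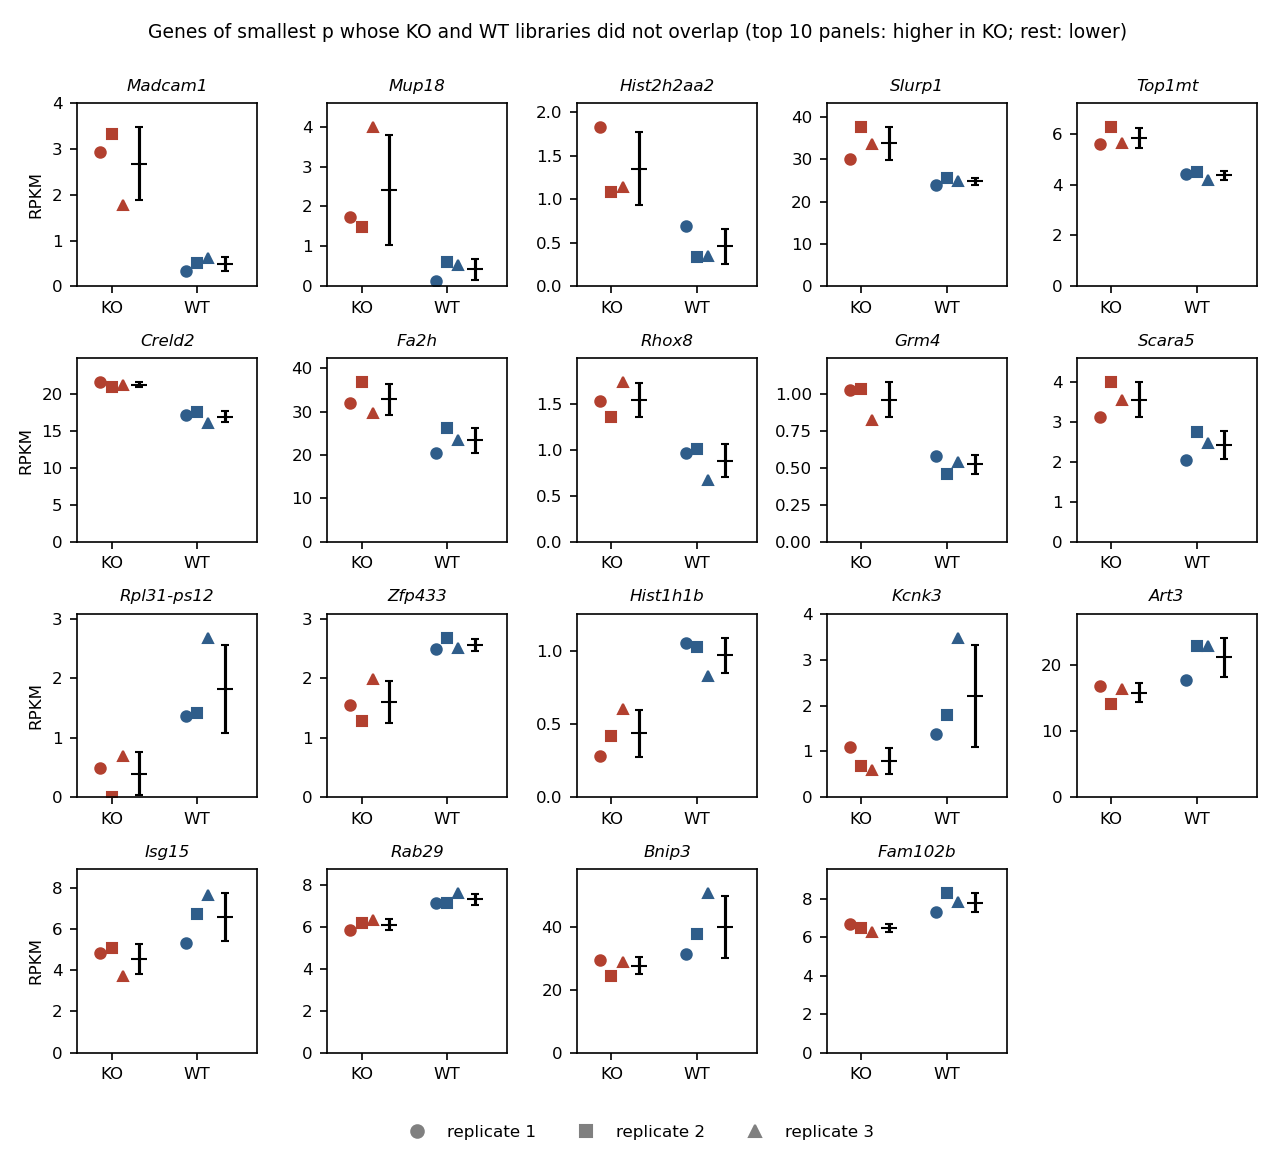
RPKM (y axis, from 0) in each P1 library of the genes with the smallest p and no overlap between groups, other than Dlx4, with KO points left, WT points right and the mean ± SD (n = 3) as a bar; the upper 2 rows hold genes higher in KO and the lower 2 rows genes lower in KO. The gap between the groups exceeds the range within each of them for Top1mt, Creld2, Grm4 and Rab29, and it is narrow for Art3, Isg15 and Bnip3.

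Lists of marker genes and pathways of skin were then described by counts and medians. In none of 36 lists did the summed RPKM of the 3 KO libraries lie all above or all below that of the 3 WT libraries, and 0 members of any list were called. In whole skin, fewer cells of a type and less RNA per cell cannot be told apart. The basal and spinous layers of the epidermis had medians near 0. Of the 12 basal genes 8 were higher and 4 lower in KO (median 0.02), and the interval of all 12 lay between -0.5 and 0.5. The progenitor keratin gene Krt15 had 373, 392 and 377 RPKM in KO skin, against 351, 328 and 325 RPKM in WT skin, each KO value above each WT value, with a difference of 0.19 (SE 0.09). Dst, which anchors keratin filaments at the basement membrane, was at -0.17 (SE 0.11), or -0.08 without WT replicate 3, and Trp63, the transcription factor that maintains the basal layer, at 0.09 (SE 0.13). Of 14 spinous genes 10 were higher and 4 lower (median 0.03), with the differentiation keratin gene Krt10 at 0.19 (SE 0.18) and the desmosomal plakophilin gene Pkp1 at 0.13 (SE 0.11). Without WT replicate 3 Krt10 was at 0.08 and Pkp1 at 0.03. With single libraries left out the list medians ran over -0.04 to 0.07 for the basal and 0.005 to 0.07 for the spinous genes. Krt10 turned to -0.21 with array weights, and Dlx3 likewise changed sign (0.18).

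Barrier genes had medians near 0 as well. Of 22 tested genes of the cornified envelope 13 were higher and 9 lower (median 0.03), and 9 had an interval between -0.5 and 0.5. Among the 36 lists theirs was the only one whose median deviation from the WT mean was higher in each KO library (0.1394, 0.0167 and 0.007) than in each WT library (-0.0055, -0.0369 and 0.005), by a narrow margin. Tgm1, the transglutaminase that crosslinks the envelope, had 40.5, 42.1 and 39.9 RPKM in KO skin, against 38.6, 38.6 and 35.1 RPKM in WT skin, KO above WT in all libraries by a small margin (0.13, SE 0.08; 0.08 without WT replicate 3). Lor, the main envelope protein, had 1912, 1231 and 1054 RPKM in KO skin, against 1219.9, 821 and 2625 RPKM in WT skin, a spread within genotypes far wider than the difference of -0.03 (SE 0.41). Of 19 barrier lipid genes 7 were higher and 12 lower (median -0.02), and 15 had an interval between -0.5 and 0.5. Slc27a4, a fatty acid transporter whose loss in mice gives a tight, thick newborn skin, was at 0.20 (SE 0.09) with groups that did not overlap. Alox12b, the lipoxygenase that acts on barrier ceramides, was at 0.22 (SE 0.12), and Elovl4, which makes the very long fatty acids of these ceramides, at 0.15 (SE 0.16). All of these came from the 7 higher genes. Of the 12 lower genes, Lipm had the lowest estimate, at -0.13 (SE 0.11), and Abca12 was at -0.05 (SE 0.09). Of 9 stress keratins and alarmins 7 were higher and 2 lower (median 0.14). Krt16, lowest in WT replicate 3, had 53.3, 41.4 and 42.9 RPKM in KO skin, against 53.8, 44.1 and 10.4 RPKM in WT skin, and Krt17, constitutive in the follicle, had 565, 596 and 539 RPKM in KO skin, against 504, 523 and 519 RPKM in WT skin, each KO value above each WT value. The median of this list was 0.04 without WT replicate 3.

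Hair follicle genes varied more between WT libraries than between the genotypes. All 12 tested hair shaft keratins (median 0.09) and all 12 inner root sheath genes (median 0.12) had an estimate above 0. The shaft list summed to 369, 493 and 391 RPKM in KO skin, against 295, 679 and 298 RPKM in WT skin, so that the 3 KO libraries lay inside the WT range. The WT range ran from replicate 1 as the lowest to replicate 2 as the highest. The shaft median was 0.54 without WT replicate 2 and -0.17 without WT replicate 1, and the inner root sheath median ran over -0.03 to 0.40. Krt71, a keratin of the inner root sheath, had 763, 958 and 792 RPKM in KO skin, against 569, 1100.4 and 647 RPKM in WT skin, and Krt35, of the hair cortex, had 85.8, 113 and 102 RPKM in KO skin, against 80.0, 129 and 76.2 RPKM in WT skin. Both were highest in WT replicate 2 and lowest in WT replicate 1 or 3. Regulators of the follicle were near 0, with 10 of 15 higher and 5 lower (median 0.03). Among them were Hoxc13, an activator of hair keratin genes, at 0.12 (SE 0.13), the vitamin D receptor gene Vdr at 0.19 (SE 0.14), or 0.08 without WT replicate 3, and Lhx2, a factor of follicle stem cells, at 0.06 (SE 0.14).

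The signalling pathways that shape follicles had medians near 0. All 22 BMP and TGF-beta genes had an interval between -0.5 and 0.5, with 11 higher and 11 lower (median 0.003). Wnt genes were 13 higher and 9 lower of 22 (median 0.05), hedgehog genes 8 and 4 of 12 (0.02), Notch genes 6 and 6 of 12 (0.01) and dermal papilla genes 8 and 5 of 13 (0.01). With single libraries left out the medians of these 5 lists lay between -0.06 and 0.08. The secreted Wnt antagonist gene Sfrp1 had 9.57, 10.4 and 10.01 RPKM in KO skin, against 7.49, 8.54 and 8.77 RPKM in WT skin. Its groups did not overlap and its difference was 0.26 (SE 0.09). Cdon, a hedgehog co-receptor, was lower in every KO library than in any WT library, at -0.11 (SE 0.08). Fgf10, a mesenchymal growth factor, stood lowest of the papilla genes at -0.28 (SE 0.14), or -0.18 without WT replicate 2.

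Sebaceous and sterol genes were mostly higher in KO, but the medians of these lists were no longer higher without WT replicate 3. Of 17 sebaceous genes 13 were higher and 4 lower (median 0.09, and -0.001 without WT replicate 3). Soat1, which esterifies cholesterol, had 9.45, 10.9 and 10.2 RPKM in KO skin, against 7.62, 8.86 and 7.16 RPKM in WT skin, with a difference of 0.35 (SE 0.10). Elovl3, a fatty acid elongase of sebaceous gland and hair follicle, had 20.0, 25.4 and 24.8 RPKM in KO skin, against 16.5, 19.8 and 14.0 RPKM in WT skin, with a difference of 0.47 (SE 0.15). Both had KO values all above WT, and without WT replicate 3 they stood at 0.29 and 0.36. The abundant lipid gene Scd1, a desaturase, overlapped between groups with 72.7, 94.3 and 87.1 RPKM in KO skin, against 77.0, 92.9 and 47.9 RPKM in WT skin.

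Of 22 cholesterol synthesis genes 19 were higher and 3 lower (median 0.16). Their sum was 646, 742 and 745 RPKM in KO skin, against 731, 723 and 494 RPKM in WT skin. The lowest of these 6 sums was that of WT replicate 3, and without it the median was -0.03. Melanocyte genes were higher in 12 of 13 (median 0.15), with the pigment enzyme gene Dct at 88.2, 137 and 118 RPKM in KO skin, against 98.8, 113 and 85.2 RPKM in WT skin. Their median was 0.01 without KO replicate 2, the highest of the libraries.

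Genes of dermal fibroblasts, white fat and blood vessel endothelium mostly had estimates below 0. Of 20 genes of fibroblasts and dermal matrix 3 were higher and 17 lower, but by little (median -0.04, -0.11 to -0.001 with single libraries left out), and 19 had an interval between -0.5 and 0.5. Decorin, the small proteoglycan encoded by Dcn, had 238, 246 and 237 RPKM in KO skin, against 249, 272 and 301 RPKM in WT skin, each KO value below each WT value (-0.18, SE 0.10; -0.12 without WT replicate 3), and dermatopontin, encoded by Dpt, was at -0.22 (SE 0.10). Col1a1 and Col3a1, the main dermal collagens, were at -0.01 and 0.003. Of 18 white adipocyte genes 3 were higher and 15 lower (median -0.12, -0.02 without WT replicate 2 and -0.29 without WT replicate 3). Pnpla2, the first lipase of triglyceride breakdown, had 49.7, 36.6 and 34.0 RPKM in KO skin, against 44.0, 55.3 and 75.8 RPKM in WT skin (-0.52, SE 0.22; -0.31 without WT replicate 3), and Adipoq, which encodes adiponectin, had 148, 109 and 89.1 RPKM in KO skin, against 118, 172 and 110.1 RPKM in WT skin. In both the groups overlapped. All 14 endothelial genes had an estimate below 0 (median -0.14, and -0.05 without WT replicate 3). Cldn5, of endothelial tight junctions, had 23.1, 16.2 and 14.4 RPKM in KO skin, against 18.3, 21.6 and 34.6 RPKM in WT skin, with WT replicate 3 the highest library and a difference of -0.44 (SE 0.25), or -0.18 without it. The junctional cadherin gene Cdh5 was at -0.23 (SE 0.13). Other lists of fat and vessels were split more evenly. Of 7 brown adipocyte genes 4 were higher and 3 lower (median 0.00023). With single libraries left out this median ran over -0.11 to 0.29, highest without WT replicate 3. With array weights it was 0.25. Of 11 pericyte and smooth muscle genes 6 were higher and 5 lower (median 0.03), and of 5 lymphatic genes 2 and 3 (median -0.01).

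Interferon-induced genes gave the median farthest from 0 among the lists of cell types and pathways. All 21 tested members had an estimate below 0 in KO, with a median of -0.31 and a range of -0.65 to -0.07. Only Isg15 had KO values all below WT values. Their sum was 116, 105 and 80.7 RPKM in KO skin, against 102, 125 and 155 RPKM in WT skin. The sums overlapped, WT replicate 1 lying below KO replicates 1 and 2, and the high end was WT replicate 3. Without it the median was -0.14, and over all single libraries left out it ran over -0.47 to -0.14. With array weights it was -0.03. Usp18, the protease that removes Isg15 from its targets, had 1.05, 1.02 and 0.670 RPKM in KO skin, against 1.05, 1.74 and 2.56 RPKM in WT skin (-0.65, SE 0.25; -0.41 without WT replicate 3). Its WT replicate 1 lay beside the KO values. Macrophage and dendritic cell genes, at 1 of 16 higher and 15 lower (median -0.10), summed to 287, 233 and 190.0 RPKM in KO skin, against 223, 235 and 349 RPKM in WT skin. Their highest sum was likewise that of WT replicate 3, and their median without it was 0.06. The part of these cells in the interferon values was not tested. All 8 mast cell genes had an estimate below 0 (median -0.09, -0.31 to 0.07 with single libraries left out).

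Muscle, blood, stress and cell division genes followed single libraries. Of 25 skeletal muscle genes 18 were higher and 7 lower (median 0.05, -0.14 to 0.30 with single libraries left out). Their sum was 10649.8, 6578 and 7265 RPKM in KO skin, against 7095, 5943 and 11861 RPKM in WT skin, so that KO replicate 1 and WT replicate 3 were high together. Actn2, of the sarcomeric Z disc, had 129, 87.6 and 96.6 RPKM in KO skin, against 88.3, 74.9 and 115 RPKM in WT skin, with a difference of 0.17 (SE 0.19) that ran over 0.012 to 0.34 with single libraries left out. The 8 erythroid genes were 4 higher and 4 lower, and the adult beta globin gene Hbb-bs had 311, 87.5 and 338 RPKM in KO skin, against 123, 188 and 385 RPKM in WT skin, a spread of several-fold inside each genotype. Of 19 immediate early and stress genes 6 were higher and 13 lower (median -0.03, 0.12 without WT replicate 3). Of 27 cell division genes 12 were higher and 15 lower (median -0.03, -0.23 without WT replicate 3 and 0.10 without WT replicate 2), and the proliferation gene Top2a had 38.2, 44.0 and 48.4 RPKM in KO skin, against 51.7, 53.2 and 27.2 RPKM in WT skin. WT replicate 3 was lowest in the division list and highest in the stress list. Of 16 clock genes 7 were higher and 9 lower (median -0.05), of 9 Schwann cell genes 2 and 7 (median -0.05), of 15 replication-dependent histone genes 6 and 9 (median -0.07) and of 4 T cell genes 2 and 2 (median -0.06).

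**Figure D4:**
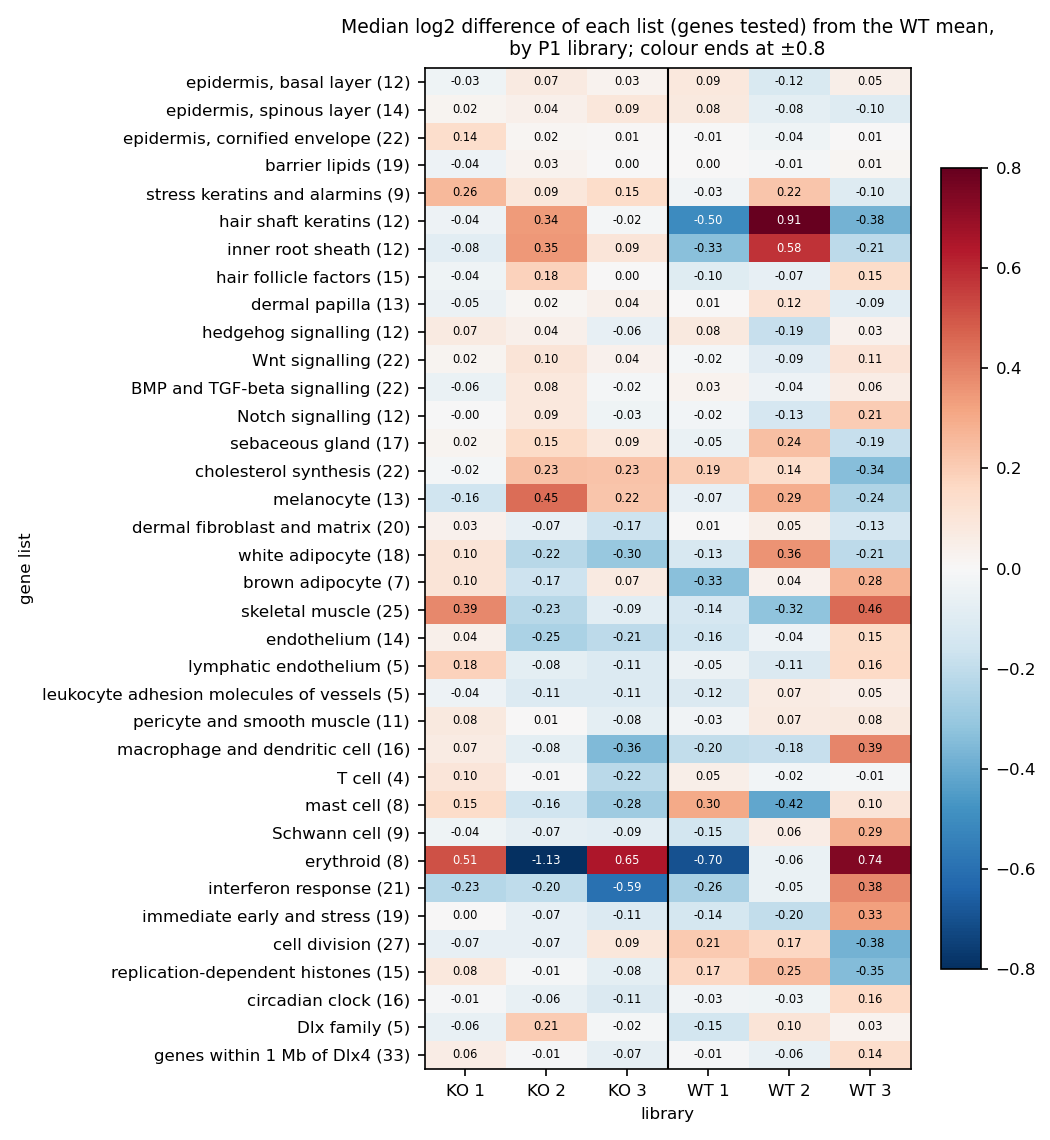
Median log2 difference of the tested members of each list from their WT mean, as a number and a colour, in each P1 library (columns, KO left of the line and WT right of it); lists run down the page with the number of tested genes. For erythroid genes (0.51, -1.13 and 0.65 in KO, against -0.70, -0.06 and 0.74 in WT) and for hair shaft keratins the columns of each genotype span both signs.

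**Figure D5:**
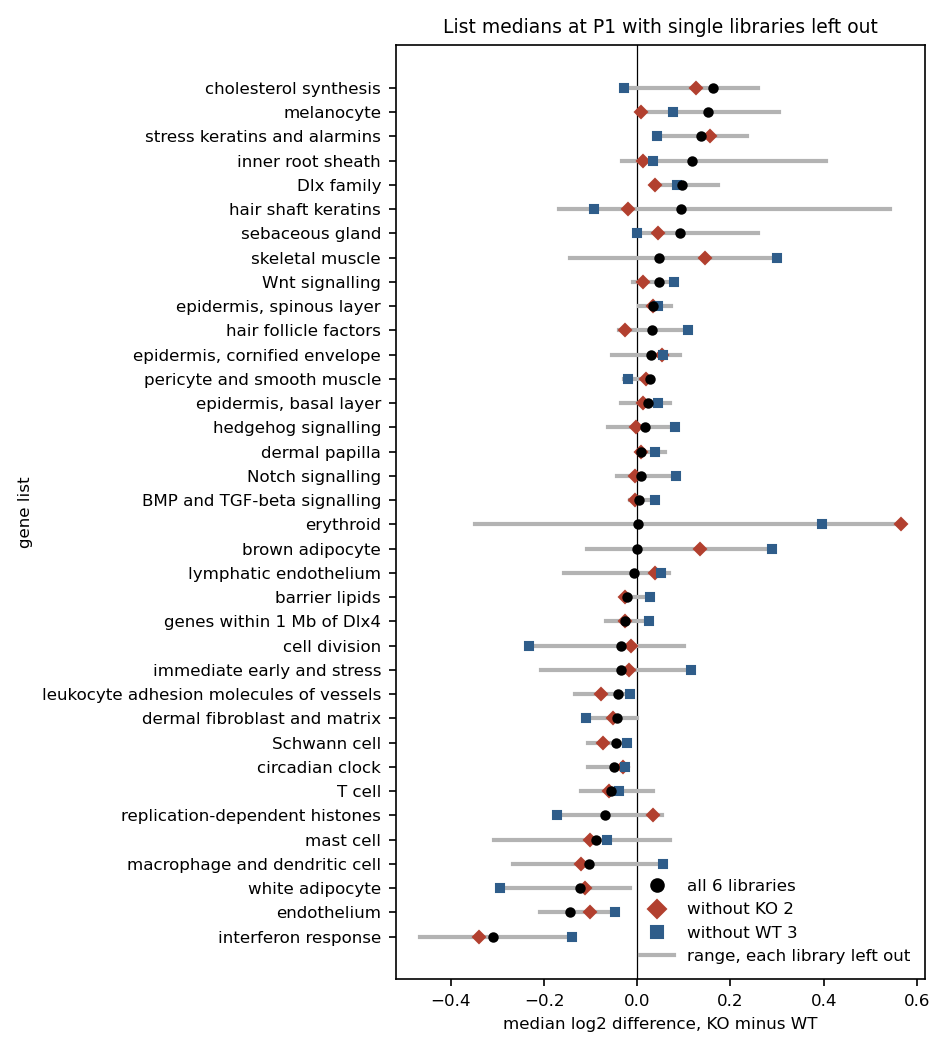
Median log2 difference KO minus WT (x axis) of each list with all 6 P1 libraries (black), without KO replicate 2 (red) and without WT replicate 3 (blue); grey bars span the range over each library left out. The interferon list keeps below 0 throughout (-0.47 to -0.14). So do other lists, such as endothelium (-0.21 to -0.05) and white adipocyte (-0.29 to -0.02), while melanocyte genes keep above 0 (0.01 to 0.30). The grey bars of hair shaft, muscle and erythroid genes cross 0 widely.

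The newborn difference was set against the adult one in a single model of all 10 libraries. The interaction, the P1 difference minus the P60 difference, was called for 0 of 14026 genes (0%) in limma. An unadjusted p under 0.05 was reached by 3214 of the 14026 genes. Unlike the count at P1 alone, this lies well above the fraction of 0.05 that evenly spread p-values would give. The 0 calls therefore do not show that the differences were alike at the 2 ages. In the same model 1560 genes (11.1%) were called between KO and WT at P60. The P1 libraries came from one sequencing run and the P60 libraries from another, and age therefore cannot be told apart from run. Top1mt had a P1 difference of 0.38 and a P60 difference of -0.31, which differ by 0.69 and did not pass (adjusted p = 0.105 in limma). Madcam1 had 1.67 at P1 and 0.14 at P60, which differ by 1.53 and did not pass either (adjusted p = 0.105 in limma). Scara5, higher in KO at both ages, was among the genes called at P60 (difference 1.32, adjusted p = 0.0314 in limma), and Fam102b was called there in the other direction from P1 (0.64, adjusted p = 0.0453 in limma). For neither did the ages differ past the threshold. Other leading genes had estimates of the same sign at P1 and P60, such as Bnip3 (-0.50 and -0.48) and Art3 (-0.41 and -0.44). Creld2 (0.32 and 0.29) and Fa2h (0.48 and 0.73) also kept their sign. Rhox8 (0.57 and -1.35) and Isg15 (-0.48 and 0.15) were among those of opposite sign. None of these was called at P60. The count of interaction calls depended on single adult libraries, since it was 784 without KO P60 replicate 2 and 267 without WT P60 replicate 2.

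The authors' deposited table gave p-values of its own analysis of variance for 21208 genes at P1, and 290 of them were under 0.05, of which 31 were among the genes tested here. A q under 0.05 was given to 2 genes by the authors' deposited table, the olfactory receptor gene Olfr523 and the RIKEN gene 1700024I08Rik. Both were listed at 0 in all WT libraries and at 0.0235 to 0.0423 RPKM in the KO libraries, far under the expression minimum. In the authors' deposited table the KO over WT ratio of Madcam1 was 4.71 (q = 0.282) and that of Dlx4 was 0.584 (q = 1).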

How the data were processed

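Per the labels, cDNA was prepared with a NEBNext kit and libraries with a NuGen kit. Per the series' design text, total RNA came from dorsal skin and was sequenced on a HiSeq instrument. The authors aligned reads to mm10 with TopHat2 2.1.0 and worked in Partek, per the submitters' processing notes. Neither the annotation nor the strand setting is given in the sources used here. The authors deposited RPKM per gene, and the count of alignments per library. The deposited comparison table of the authors holds group means on the log2 scale, which match log2(RPKM + 0.1) within 4.79e-05. The authors also gave a linear KO over WT ratio made from these means, and the p and q of an analysis of variance whose model is not stated. As deposited, 26 symbols had turned into dates and 3881 entries were 0 in all P1 libraries.

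The limma package (3.58.1, R 4.3.3) was fitted to log2(RPKM + 0.5) of the 6 P1 libraries alone, with a mean-variance trend, for genes at 1 RPKM or more in 2 or more libraries. This scale understates the differences of low genes. Benjamini-Hochberg adjustment ran over all tested genes, and the threshold for a call was 0.05. Through KO libraries alone 26 genes passed the minimum, and through WT libraries alone 51. Exact permutation tests were two-sided. The interaction was fitted to all 10 libraries with a mean for each of 4 groups. The procedure was tested on simulated data whose noise was drawn independently for each gene. Such data lack the variation that genes of a library share, so this test cannot show how that variation affects the calls. Approximate read numbers are RPKM times alignments times the exon length of the basic GENCODE release M21 annotation, which also gave positions and may not be the one the authors used. They are subject to counting error, and RPKM carries no interval of its own.

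Genes named are Dlx4 and Dlx3, up to 10 genes of smallest p in each direction whose groups did not overlap, and the 2 members of smallest p of each list, passing over predicted genes, RIKEN clones, small RNAs, symbols turned into dates and symbols without a lower-case letter. Other list members named are abundant or well-known genes, chosen after their values were seen, and some members are not reported here. The members and the lists were chosen with earlier results of these data known, and the lists got no test. Alternatives were the pseudocount, the expression minimum, 2 other scalings, array weights, all libraries in the fit, a replicate block and leaving out each library. Same-numbered KO and WT libraries deviated with correlations of -0.17, 0.27 and -0.274. KO replicate 1 had 0.351 with WT replicate 3, and KO replicate 3 had 0.288 with WT replicate 1. Deviations from means of 3 libraries cannot show whether samples are paired. The labels tie no number to a litter, and the numbers were not taken to pair samples.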

Additional observations from a re-analysis of the deposited data

How the results depend on the processing

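The count of 0 called genes at P1 held with pseudocounts of 0.1 and 1, with at least 1 RPKM in all 6 libraries, under both other scalings, with all 10 libraries in the fit, and with each P1 library left out (0 to 0). It was 1 with no expression filter and 41 with array weights, 14 of them among the 87 named genes. The replicate block called 0 genes and left 109 at an unadjusted p under 0.05, against 132 without it. With libraries left out that number ran from 61 (without KO replicate 2) to 325 (without WT replicate 3), and with no expression filter and with array weights it was 433 and 3248. The difference of Dlx4 ran from -0.81 to -0.57 with libraries left out and was -0.31 with array weights. The interaction count, 0 as reported, was 2 with a pseudocount of 0.1, 19 with no filter, 3 with median-of-ratios factors, 465 with array weights and 0 to 784 with libraries left out. Array weights turned round the sign of Dlx3 (0.18), Krt10 (-0.21), Gli2 (-0.000818), Mb (-0.11), Lyve1 (-0.063) and Car2 (0.27). Leaving out single libraries gave ranges that cross 0 for Bmp7 (-0.035 to 0.19), Notch1 (-0.013 to 0.19), Cidea (-0.0089 to 0.33), Mb (-0.12 to 0.62), Lyve1 (-0.030 to 0.18), Mmrn1 (-0.19 to 0.043), Ptprc (-0.22 to 0.0016), Slc4a1 (-0.083 to 0.23), Car2 (-0.34 to 0.090) and Dusp1 (-0.63 to 0.022). The causes were not tested. Of the other settings of list medians 536 stayed within the spread between libraries and 18 moved beyond it. Medians of all genes moved by less than 0.1 under every scaling. With 3 libraries a group, 95% intervals reached a median of 0.273 to either side, which limits what can be told of smaller differences.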

Other observations

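Genes of protein folding in the endoplasmic reticulum, a list put together after Creld2 had been seen among the leading genes, were higher in KO for 16 of 18 tested members and lower for 2, with a median log2 difference of 0.21 and 0 called in limma. Manf, a secreted protein induced by folding stress, had 39.1, 34.9 and 40.5 RPKM in KO skin, against 32.2, 29.1 and 23.2 RPKM in WT skin. Hspa5, the main chaperone of the compartment, had 196, 205 and 237 RPKM in KO skin, against 193, 190.0 and 123 RPKM in WT skin, and the lectin chaperone gene Calr had 292, 305 and 341 RPKM in KO skin, against 281, 266 and 208 RPKM in WT skin. These 3 were chosen after their values were seen, from the 8 of 18 members whose KO values all lay above the WT values, as those of 2.02% of all genes tested did. Creld2, which prompted the list and was itself picked for its lack of overlap, is counted among the 16 higher members and among these 8. In all 3 genes WT replicate 3 was the lowest of the 6. The sum over the list was 1286, 1322 and 1488 RPKM in KO skin, against 1283, 1246 and 954 RPKM in WT skin, so that the groups did not overlap but KO replicate 1 and WT replicate 1 were close. Without WT replicate 3 the median was 0.10. Xbp1, a transcription factor of the same response, was at 0.10 (SE 0.08), and the degradation genes Edem1 and Herpud1 were at -0.03 and -0.04.

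The libraries also differed in Hox genes, which record position along the body axis, and this was seen after the values were known. Hoxc10, a posterior gene, had 1.35, 2.78 and 2.28 RPKM in KO skin, against 4.15, 3.25 and 0.0822 RPKM in WT skin. Hoxa9 had 3.20, 5.38 and 5.57 RPKM in KO skin, against 6.54, 4.93 and 2.84 RPKM in WT skin, and Hoxc9 had 2.04, 2.97 and 2.74 RPKM in KO skin, against 3.30, 2.87 and 1.33 RPKM in WT skin. WT replicate 3 held the least of all 3 and WT replicate 1 the most, so that the spread lay within the WT group, with differences between genotypes of 0.24, 0.02 and 0.09. Hoxd9 ran the other way, with 4.57, 4.04 and 3.90 RPKM in KO skin, against 4.31, 2.95 and 6.08 RPKM in WT skin. Where on the back each piece of skin was taken is not in the labels.

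Several slow muscle genes were highest in KO replicate 1, in a list of 8 put together after values had been seen. Myl2, the slow and cardiac regulatory light chain, had 10.6, 0 and 0.0485 RPKM in KO skin, against 0.0936, 0.0439 and 1.80 RPKM in WT skin, and Myh7, the slow myosin heavy chain, had 5.90, 0.0916 and 0.0938 RPKM in KO skin, against 0.324, 0.0444 and 1.69 RPKM in WT skin. In both genes KO replicate 1 was the highest of the 6 and WT replicate 3 the next. Myl3, Tnnc1, Tnni1 and Tnnt1 were also highest in KO replicate 1. The calcium pump gene Atp2a2 and the calcium store gene Casq2 went otherwise, with 50.5, 51.4 and 51.1 RPKM in KO skin, against 48.7, 51.8 and 41.1 RPKM in WT skin for Atp2a2 and 37.6, 27.3 and 34.8 RPKM in KO skin, against 32.7, 29.9 and 38.6 RPKM in WT skin for Casq2. The hair keratin-associated protein gene Krtap15 had 15.2, 31.1 and 14.9 RPKM in KO skin, against 8.82, 83.7 and 5.23 RPKM in WT skin, with WT replicate 2 the highest library.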
